A study of Mus musculus with 12 samples.

Results

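The change in gene expression from renal progenitor cells to organoids was compared between cultures derived from mouse kidney cortex, the outer layer, and from medulla, the inner layer. The measure was the organoid minus progenitor change in medulla-derived cultures minus the same change in cortex-derived cultures, called the region difference in change here. It used 8 of the 12 arrays of the series, 2 in each of 4 groups: cortex-derived progenitor cells, medulla-derived progenitor cells, cortex-derived organoids and medulla-derived organoids. The other 4 arrays held cortex and medulla tissue. The genes were all those that a probe set of their own named, 18193 in number, and 13037 of them were bright enough in at least 1 group to be tested. Both progenitor groups had been grown on fibroblast feeder cells and both organoid groups in 3D Matrigel, so feeder, gel and stage changed together in each region. No strain, age, sex, genotype or culture time was given in the sources used here. The labels call the replicates biological but do not tie them to separate animals, so the p-values measure the spread between these arrays.

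The cortex of the kidney holds the glomeruli, the proximal and distal convoluted tubules and the first stretch of the collecting ducts. The medulla holds the loops of Henle and the inner collecting ducts, with a looser interstitium of fibroblasts. Tubule cells put in culture spread, divide and take on mesenchymal genes such as those of vimentin, N-cadherin and collagens, and a gel of basement membrane proteins lets them form polarised hollow structures again. Fibroblasts of a feeder layer carry the same mesenchymal genes, and in RNA from a whole culture fewer cells of a type and less RNA per cell cannot be told apart.

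Values are log2 of the array signal plus an offset of 15.1473 signal units. On this scale a signal of 0 reads 3.92 and the median probe set of a culture array 6.19 to 6.75, so folds of dim genes are understated. The epithelial markers Epcam, Cdh1, Krt8 and Krt19 read 11.97 to 15.17 on the 8 culture arrays, and the renal factor Pax8 11.24 to 12.48. The proximal tubule transporter genes Lrp2 and Slc34a1, the water channel gene Aqp2, the thick limb cotransporter gene Slc12a1, the nephron progenitor gene Six2 and the endothelial gene Pecam1 read 3.97 to 6.67. These markers of mature proximal tubule, principal cell, thick limb, nephron progenitor and endothelium were therefore near or below the array median throughout. They do not stand for every gene of their segments. Kap, a proximal tubule gene, read 10.56 to 11.78 in organoids, and the thick limb gene Umod rose there as given below. The mean over 28 proximal tubule genes was 5.76 to 5.97 on organoid arrays. For 17 loop of Henle genes it was 8.18 to 8.39. The median replicate difference was 0.13 in cortex progenitors, 0.16 in medulla progenitors, 0.21 in cortex organoids and 0.41 in medulla organoids. The level at the 3′ end of the Gapdh control transcript less that at its 5′ end, a sign of RNA length, was -0.405 to -0.298 in progenitors, 1.53 and 1.67 in cortex organoids and 1.15 and 0.87 in medulla organoids. This measure thus also moved with the region difference in change, and its part in the results was not tested. The same measure for Actb was 0.163 to 0.187 in progenitors, 0.0202 and 0.149 in cortex organoids and -0.00155 and 0.111 in medulla organoids, so the organoid groups overlapped.

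The change from progenitor to organoid was large in both regions, and most of it was shared. On the log2 signal scale, the poly-A control transcripts had medians of 7.03 to 7.37 in progenitors and 1.215 to 1.88 in organoids. The hybridization controls read 11.66 to 11.72 and 12.44 to 12.81. Both thus moved with stage in each region, and their part in the change was not tested. In cortex-derived cultures 3162 genes rose (24.3% of genes tested) and 4893 fell (37.5%), by limma's moderated test with Benjamini-Hochberg adjusted p below 0.05. In medulla-derived cultures 3090 rose (23.7%) and 5032 fell (38.6%). Of the genes that rose in cortex 77.5% also rose in medulla, and of those that rose in medulla 79.3% rose in cortex. For falls the shares were 82.8% and 80.5%. Across genes, which are not independent replicates, the 2 changes had a Pearson correlation of 0.88, from arrays that the 2 regions do not share.

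The size of the change depended on region for 535 genes, 4.1% of those tested. In 212 (1.63%) the change was more upward in medulla, and in 323 (2.48%) more downward. The median size of a called difference was 1.53 log2 units, against a median standard error (SE) of 0.36 over all genes. At an unadjusted p below 0.05 limma gave 2574 genes. In all 535 the change of any organoid array from any progenitor array of 1 region lay outside the range of the other region, which also held for 34.8% of all genes tested. The count moved with single arrays. A group left with 1 array no longer adds to the spread that limma shares over groups. It was 124 and 128 without cortex progenitor replicate 1 and 2, and 158 and 145 without medulla progenitor replicate 1 and 2. It was 212 and 179 without cortex organoid replicate 1 and 2, and 1610 and 2509 without medulla organoid replicate 1 and 2, the group whose replicates differed most.

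**Figure D1:**
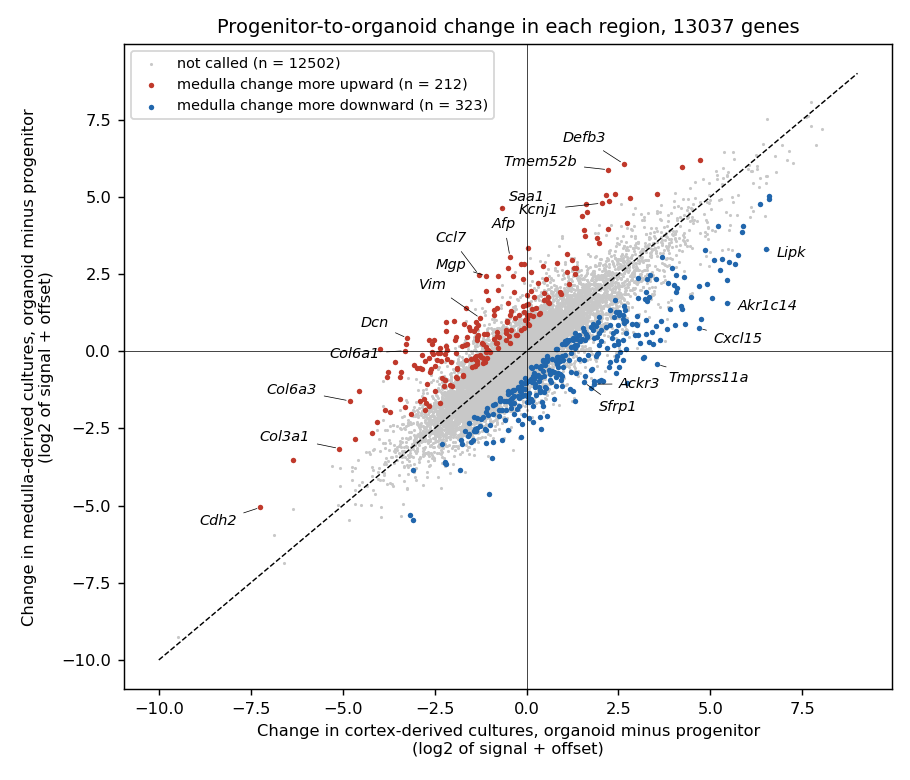
Each point is 1 of 13037 genes, with the organoid minus progenitor change in cortex-derived cultures on the x axis and in medulla-derived cultures on the y axis, both in log2 of signal plus offset. Red points are the 212 genes and blue points the 323 genes whose change differed between regions at an adjusted p below 0.05. The dashed line marks equal change. Most genes lie along that line, and Saa1, Dcn, Cxcl15 and Akr1c14 stand far from it.

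Genes of fibroblasts and mesenchyme made up the clearest group. Of 23 members tested, 11 had a more upward change in medulla and 0 a more downward one, against 1.63% and 2.48% of all genes. At an unadjusted p below 0.05 limma gave 18 upward and 0 downward. In cortex 19 of the 23 fell and 1 rose, with a median change of -2.19. In medulla 7 fell and 2 rose, with a median of -0.32. The median region difference in change was 1.94, against -0.02 over all genes tested. The mean level of the list was 9.36 and 9.35 on the cortex progenitor arrays and 9.65 and 9.69 on the medulla progenitor arrays. Cortex organoid arrays gave 6.81 and 7.09, and medulla organoid arrays 9.07 and 8.93. The list mean was thus slightly higher in medulla than in cortex progenitors and further apart in the organoids. Both medulla arrays lay above both cortex arrays in 13 of the 23 genes in progenitors, where 4 genes had the opposite order and 6 overlapped, and in 21 of the 23 in organoids. Without any 1 progenitor or cortex organoid array 4 or 5 members were called, and up to 14 without a medulla organoid array.

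**Figure D2:**
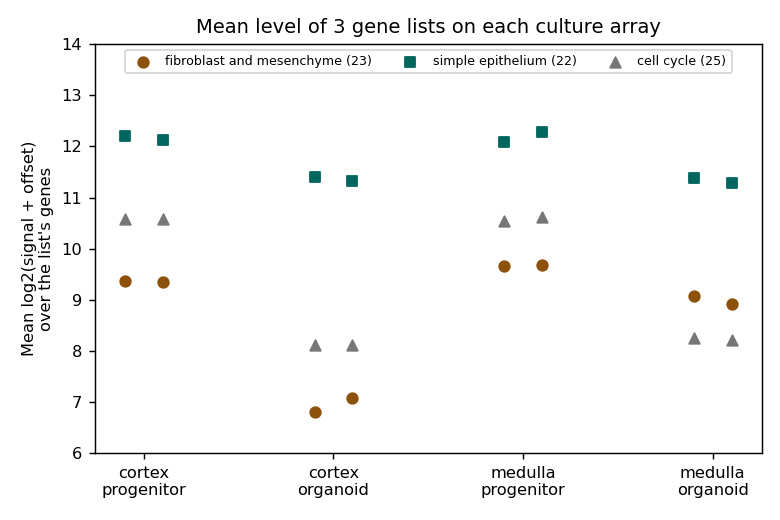
Points give the mean log2 of signal plus offset over the genes of 3 lists on each of the 8 culture arrays, 2 points a group. Brown circles, the fibroblast and mesenchyme list, drop to 6.81 and 7.09 in cortex organoids and stay at 9.07 and 8.93 in medulla organoids. The simple epithelium (squares) and cell cycle (triangles) lists, in which 0 genes were called for a region difference, drop alike in both regions.

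Dcn encodes decorin, a small proteoglycan that coats collagen fibrils. It read 9.84 and 9.82 in cortex progenitors and 6.17 and 7.0 in cortex organoids, and 9.17 and 9.41 in medulla progenitors and 9.61 and 9.83 in medulla organoids. Both cortex organoid arrays lay below every other culture array. The change was -3.24 in cortex and 0.42 in medulla, a region difference of 3.67 ± 0.45 (SE, 2 arrays in each of 4 groups, limma adjusted p = 0.00263). Vim, which encodes the intermediate filament vimentin, moved in opposite directions. It fell from 11.24 and 11.37 to 9.89 and 10.20 in cortex and rose from 12.04 and 11.61 to 13.06 and 12.73 in medulla. The groups did not overlap, and the region difference was 2.33 ± 0.25 (SE, limma adjusted p = 0.00172). Mmp2, a secreted gelatinase of fibroblasts, had a region difference of 2.86 ± 0.53 (SE, limma adjusted p = 0.0141). It fell in cortex, with a change of -2.20, and the medulla change of 0.66 did not pass the test. Leaving out any progenitor array or cortex organoid replicate 2 ended the Mmp2 call (limma adjusted p 0.00234 to 0.0762 over the 8 leave-outs), whereas Dcn and Vim were called without any 1 array.

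The same list also held members that were not called. Col1a1, the main collagen of scar and bone, rose in both regions, from 9.49 and 9.59 to 10.51 and 10.57 in cortex and from 10.19 and 10.14 to 12.03 and 11.79 in medulla. Its region difference was 0.74 ± 0.24 (SE, limma adjusted p = 0.11, and 0.223 with a variance for each group). With 1 array left out it was 0.62 to 0.86. Fn1, the gene of fibronectin, fell by 3.52 in cortex and by 2.43 in medulla, with a region difference of 1.09 ± 0.37 (SE, limma adjusted p = 0.123). That difference was 0.74 to 1.43 with 1 array left out, and a variance for each group gave it a limma adjusted p of 0.244. Called genes could also miss 0.05 under that variance model: of the 97 named genes called, 57 stayed called. Of the smooth muscle and pericyte markers, 0 of 10 were called by limma (2 at an unadjusted p below 0.05). Acta2, the smooth muscle actin gene of contractile fibroblasts, fell in both regions, by 4.50 and 4.99.

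**Figure D3:**
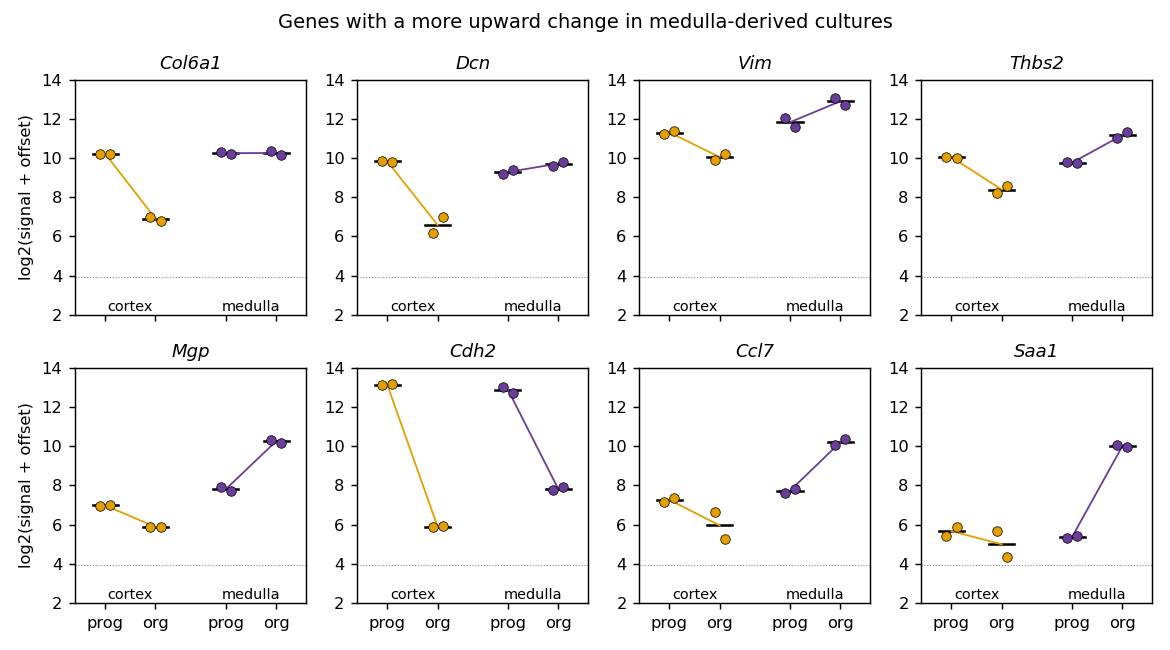
Each panel shows 1 gene on the 8 culture arrays (prog, progenitor; org, organoid), in log2 of signal plus offset, with points for arrays, bars for group means, lines joining the means of a region and a dotted line at a signal of 0. Col6a1, Dcn, Vim and Thbs2 fall in cortex (orange) and not in medulla (purple), Cdh2 falls in both, and Mgp, Ccl7 and Saa1 rise in medulla.

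Collagens moved in the same direction. Of 22 tested, 7 had a more upward change in medulla and 0 a more downward one, against 1.63% and 2.48% of all genes, with a median region difference of 0.78 (12 and 1 at an unadjusted p below 0.05). In cortex 15 fell and 1 rose, and in medulla 10 fell and 2 rose. All 3 tested chains of collagen VI, a beaded microfibril around cells, were among the 7. Col6a1 read 10.23 and 10.20 in cortex progenitors and 7.0 and 6.81 in cortex organoids, against 10.30 and 10.20 and 10.36 and 10.17 in medulla. The cortex organoid arrays lay more than 3 log2 units below all others, and the 6 remaining arrays lay between 10.17 and 10.36. The region difference was 3.33 ± 0.42 (SE, limma adjusted p = 0.0029). Col6a2 fell in both regions but further in cortex, to 6.21 and 6.40 against 9.40 and 10.10 in medulla organoids, a region difference of 3.28 ± 0.44 (SE, limma adjusted p = 0.00333). Col6a3 did likewise, with cortex organoid arrays at 5.52 and 6.12 and medulla organoid arrays at 9.72 and 8.58. Its difference of 3.20 ± 0.65 (SE, limma adjusted p = 0.0221) was not called without any 1 progenitor or cortex organoid array (limma adjusted p 0.00251 to 0.097 over the 8 leave-outs). Without such an array 3 collagens were called in all, and up to 11 without a medulla organoid array.

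Col4a1, a chain of the basement membrane collagen that Matrigel also contains as protein, fell from 11.26 and 11.22 to 9.66 and 10.05 in cortex. It rose from 11.58 and 11.35 to 12.56 and 12.24 in medulla, with groups that did not overlap and a region difference of 2.32 ± 0.25 (SE, limma adjusted p = 0.00172). Col4a2, its neighbour on the chromosome, named after its values were seen, had a difference of 1.71 ± 0.32 (SE, limma adjusted p = 0.0147). Col3a1, the fibrillar collagen of loose tissue, fell in both regions, from 11.94 and 11.86 to 6.57 and 7.04 in cortex and from 12.14 and 12.52 to 8.89 and 9.48 in medulla. Its difference of 1.94 ± 0.45 (SE, limma adjusted p = 0.0372) was lost without any 1 progenitor or cortex organoid array (limma adjusted p 0.0105 to 0.142 over the 8 leave-outs).

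Col6a1 and Col6a2 lie side by side in the genome, and the 250 bases before their start sites are shown because the pair moved together here. The sequences are from RefSeq on mouse build GRCm38.p6, both on the minus strand and on chromosome 10, at chr10:76726045-76726294 for Col6a1 and chr10:76623405-76623654 for Col6a2. Capitals mark matches to 5 motifs searched on both strands: TGACTCA (AP-1), GGAATG (TEAD), CCGGAA (ETS), GTTAAT (part of the HNF1 site) and CACCTG (an E-box that Snail and ZEB factors read).
Col6a1: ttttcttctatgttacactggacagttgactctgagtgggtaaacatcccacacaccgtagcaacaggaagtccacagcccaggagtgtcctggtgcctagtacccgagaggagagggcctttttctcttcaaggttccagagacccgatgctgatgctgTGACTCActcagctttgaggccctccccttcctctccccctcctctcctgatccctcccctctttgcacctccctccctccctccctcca
Col6a2: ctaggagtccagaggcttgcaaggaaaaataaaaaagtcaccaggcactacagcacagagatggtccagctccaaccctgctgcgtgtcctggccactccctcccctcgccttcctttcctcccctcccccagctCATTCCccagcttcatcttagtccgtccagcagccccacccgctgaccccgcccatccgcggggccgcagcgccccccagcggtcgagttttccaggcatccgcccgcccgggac
The Col6a1 match is to TGACTCA, and the Col6a2 match is to GGAATG on the opposite strand. In windows of 300 bases, from 250 before to 50 after the start, found for 166 of the 212 genes more upward in medulla, 4.22% held TGACTCA and 15.7% GGAATG. Among the 258 windows of the 323 genes more downward in medulla the shares were 5.81% and 8.53%, and among 10504 windows of all genes tested 3.72% and 12.2%. For CCGGAA the 3 shares were 18.1%, 22.5% and 26.8%, for GTTAAT 7.83%, 5.04% and 4.41%, and for CACCTG 16.3%, 21.7% and 18.4%. A match is a description of the letters and not of a bound site.

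Genes that modify or decorate the matrix followed. Of 25 crosslinking enzymes and matrix glycoproteins, 6 had a more upward change in medulla and 0 a more downward one (all genes 1.63% and 2.48%), with a median region difference of 0.80 (8 and 0 at an unadjusted p below 0.05). Thbs2, which encodes the matricellular protein thrombospondin 2, fell from 10.06 and 10.01 to 8.20 and 8.59 in cortex and rose from 9.80 and 9.73 to 11.01 and 11.32 in medulla. The organoid groups stood more than 2 log2 units apart and the progenitor groups close together, a region difference of 3.05 ± 0.28 (SE, limma adjusted p = 0.000708). Vcan, the large proteoglycan versican, fell in both regions but further in cortex, to 6.78 and 6.92 against 9.57 and 9.68, a difference of 2.61 ± 0.31 (SE, limma adjusted p = 0.00209). Lox, the collagen crosslinking enzyme lysyl oxidase, fell by 1.42 in cortex and had a medulla change of 0.67 that did not pass the test. Its difference of 2.09 ± 0.42 (SE, limma adjusted p = 0.0221) was lost without any progenitor array or cortex organoid replicate 2 (limma adjusted p 0.00365 to 0.109 over the 8 leave-outs). Without 1 array other than a medulla organoid array 3 or 4 of these genes were called, and up to 9 without a medulla organoid array.

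Of 16 genes of epithelial-mesenchymal transition, 4 had a more upward change in medulla and 1, Mmp14, a more downward one (all genes 1.63% and 2.48%). Cdh2, the gene of N-cadherin, fell from 13.10 and 13.16 to 5.88 and 5.91 in cortex and from 13.04 and 12.74 to 7.77 and 7.89 in medulla. Its fall was steep in both regions and 2.18 log2 units shallower in medulla (SE 0.25, limma adjusted p = 0.00178). Cdh1, the gene of E-cadherin, fell by 1.41 in cortex and 1.32 in medulla, with a region difference of 0.09 ± 0.23 (SE, limma adjusted p = 0.893) that did not pass the test. Mmp14, a membrane-bound collagenase, fell by 1.36 in cortex and by 2.60 in medulla, a difference of -1.23 ± 0.26 (SE, limma adjusted p = 0.025). That call was lost without any 1 progenitor or cortex organoid array (limma adjusted p 0.00533 to 0.114 over the 8 leave-outs), and without such an array 2 or 3 genes of the list were called. The 4 lists of fibroblasts, collagens, matrix proteins and transition share members. Over their 69 distinct genes 19 were called upward (27.5%) and 1 downward, and 58 had a positive region difference, against 48.8% of all genes tested.

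Among secreted inflammatory genes the directions were mixed. Of 33 chemokines and cytokines, 3 had a more upward and 3 a more downward change in medulla, against 1.63% and 2.48% of all genes. Ccl7 and Ccl2, neighbouring genes for chemokines that attract monocytes, were among the upward ones. Ccl7 read 7.15 and 7.37 in cortex progenitors and 6.66 and 5.26 in cortex organoids, against 7.62 and 7.82 and 10.06 and 10.35 in medulla. It fell in cortex and rose in medulla, and all 4 groups of arrays stood apart, with a region difference of 3.78 ± 0.58 (SE, limma adjusted p = 0.00577). Ccl2 rose in medulla from 10.20 and 10.41 to 12.89 and 12.86, and its cortex change of 0.13 did not pass the test. The difference was 2.44 ± 0.27 (SE, limma adjusted p = 0.00177). Both were called under every alternative and without any 1 array.

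Saa1 had the largest region difference among the named genes. It encodes serum amyloid A, an acute phase protein that epithelia also make. It read 5.44 and 5.90 in cortex progenitors and 5.66 and 4.33 in cortex organoids, and 5.29 and 5.44 in medulla progenitors and 10.04 and 9.97 in medulla organoids. The 2 medulla organoid arrays stood more than 4 log2 units above all 6 others, which lay between 4.33 and 5.90, and the region difference was 5.31 ± 0.67 (SE, limma adjusted p = 0.0029). The wider list of acute phase and innate defence genes did not share this: 1 of 27 was more upward and 1 more downward in medulla, while 21 rose in cortex and 23 in medulla. S100a8 and S100a9, the calprotectin genes of that list, rose by 8.04 and 7.74 in cortex and by 7.19 and 7.30 in medulla, with region differences of -0.85 ± 0.31 and -0.43 ± 0.59 (SE, limma adjusted p = 0.154 and 0.754). The 250 bases before the Saa1 start (RefSeq, GRCm38.p6, minus strand, chr7:46742981-46743230) are shown as those of the named gene with the largest upward difference, with a CACCTG match in capitals.
Saa1: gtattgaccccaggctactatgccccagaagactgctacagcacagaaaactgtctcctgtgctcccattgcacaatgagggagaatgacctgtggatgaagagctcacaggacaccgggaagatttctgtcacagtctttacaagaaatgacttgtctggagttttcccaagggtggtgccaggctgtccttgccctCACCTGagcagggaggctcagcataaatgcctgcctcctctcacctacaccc

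The other genes with the largest upward differences fell into 2 kinds. In the first, the level was lost in cortex organoids alone. Ptx3, a soluble pattern receptor that fibroblasts make under inflammation, read 8.43 and 8.35 in cortex progenitors and 5.68 and 4.54 in cortex organoids, and 8.14 and 7.92 and 8.11 and 8.42 in medulla (difference 3.52 ± 0.55, SE, limma adjusted p = 0.00632). S1pr3, a receptor for sphingosine 1-phosphate, read 8.55 and 8.63 and 4.03 and 5.19 in cortex and 8.38 and 8.67 and 7.75 and 9.44 in medulla. Its difference of 4.06 ± 0.74 (SE, limma adjusted p = 0.0137) was lost without any progenitor array or cortex organoid replicate 1 (limma adjusted p 0.000884 to 0.0655 over the 8 leave-outs). In the second kind, the level was gained in medulla organoids, alone or more than in cortex. Mgp, the matrix Gla protein that inhibits calcification, fell from 6.95 and 7.0 to 5.88 and 5.88 in cortex and rose from 7.92 and 7.70 to 10.34 and 10.15 in medulla (difference 3.53 ± 0.35, SE, limma adjusted p = 0.000894). Afp, the fetal serum protein alpha-fetoprotein, rose in medulla from 6.12 and 5.28 to 8.40 and 9.12 and read 5.28 to 5.79 on all 4 cortex-derived arrays (difference 3.50 ± 0.49, SE, limma adjusted p = 0.00406).

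Tmem52b, a membrane protein gene, rose in both regions, to 6.99 and 6.93 in cortex organoids and 10.88 and 10.91 in medulla organoids. All progenitor arrays read 5.58 or less, and the difference was 3.66 ± 0.57 (SE, limma adjusted p = 0.00599). Defb3, a beta-defensin gene, rose likewise, to 7.02 and 6.79 and 10.93 and 9.55, a difference of 3.43 ± 0.61 (SE, limma adjusted p = 0.0132). Gja3, a gap junction gene, read 4.24 and 4.93 in cortex organoids and 7.50 and 7.82 in medulla organoids, with progenitor arrays between 4.06 and 5.02. Its difference was 3.30 ± 0.59 (SE, limma adjusted p = 0.0127). The Defb3 call was lost without cortex progenitor replicate 2, either medulla progenitor array or cortex organoid replicate 2 (limma adjusted p 0.000978 to 0.0633 over the 8 leave-outs). The Gja3 call was lost without cortex progenitor replicate 2, medulla progenitor replicate 2 or cortex organoid replicate 1 (limma adjusted p 0.00887 to 0.0633).

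With unnamed gene models and cross-hybridizing probe sets passed over, the largest differences in the other direction had a common pattern. They belonged to genes that rose in cortex organoids and rose less, or not measurably, in medulla organoids. Gzme and Plagl1, passed over here at -3.60 and -3.26, had another pattern, given below. Tmprss11a, a serine protease gene of squamous epithelia, read 4.18 and 4.31 in cortex progenitors and 7.93 and 7.66 in cortex organoids, against 4.02 and 5.09 and 4.22 and 4.03 in medulla. The 2 cortex organoid arrays lay more than 2 log2 units above all others, which read 5.09 or less. The region difference was -3.98 ± 0.57 (SE, limma adjusted p = 0.00447). Its upstream 250 bases (RefSeq, GRCm38.p6, minus strand, chr5:86468991-86469240) are shown as those of the named gene with the largest downward difference, with a CACCTG match in capitals.
Tmprss11a: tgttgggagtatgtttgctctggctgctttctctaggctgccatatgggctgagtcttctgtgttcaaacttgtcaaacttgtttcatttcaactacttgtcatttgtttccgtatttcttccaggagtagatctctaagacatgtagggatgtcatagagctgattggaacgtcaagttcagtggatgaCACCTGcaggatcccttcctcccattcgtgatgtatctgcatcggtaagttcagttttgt

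**Figure D4:**
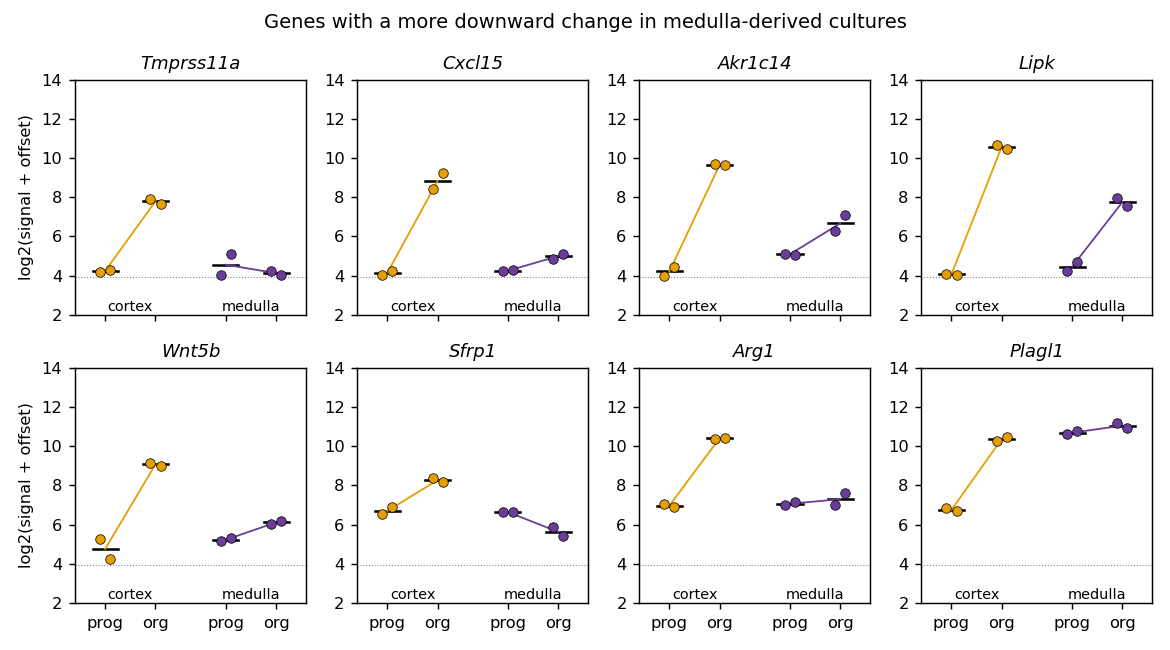
Each panel shows 1 gene on the 8 culture arrays (prog, progenitor; org, organoid), in log2 of signal plus offset, with points for arrays, bars for group means, lines joining the means of a region and a dotted line at a signal of 0. Tmprss11a, Cxcl15, Akr1c14, Lipk, Wnt5b and Arg1 rise further in cortex (orange) than in medulla (purple), Sfrp1 rises in cortex and falls in medulla, and Plagl1 starts lower in cortex progenitors and ends near the medulla level.

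Cxcl15, a chemokine gene of lung and other epithelia, rose from 4.03 and 4.25 to 8.41 and 9.25 in cortex and read 4.24 and 4.26 and then 4.87 and 5.12 in medulla. The organoid groups were more than 3 log2 units apart, with a region difference of -3.95 ± 0.65 (SE, limma adjusted p = 0.00862). Akr1c14, an aldo-keto reductase that acts on steroids, rose in both regions, from 3.97 and 4.46 to 9.68 and 9.64 in cortex and from 5.13 and 5.06 to 6.26 and 7.08 in medulla. Its difference was -3.87 ± 0.44 (SE, limma adjusted p = 0.00177), and near relatives in the same gene cluster could share its probes. Enpp3, an ectoenzyme that splits nucleotides, rose to 9.37 and 9.19 in cortex organoids and 6.37 and 5.32 in medulla organoids from 4.20 to 4.90 in all progenitors (difference -3.70 ± 0.49, SE, limma adjusted p = 0.00303). Lipk, a lipase gene of differentiating keratinocytes, rose to 10.69 and 10.48 and 7.94 and 7.55 from 4.05 to 4.68 (difference -3.22 ± 0.45, SE, limma adjusted p = 0.00392). In both genes every organoid array lay above every progenitor array, and the 2 organoid groups did not overlap. Arg1, the urea cycle enzyme arginase 1, rose from 7.04 and 6.91 to 10.37 and 10.44 in cortex and read 6.99 and 7.13 and 6.98 and 7.61 in medulla (difference -3.20 ± 0.43, SE, limma adjusted p = 0.00325).

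Bnipl, a gene of the apoptosis-linked BNIP family, and Syn2, which encodes the synaptic vesicle protein synapsin II, followed the Arg1 pattern at lower levels. Bnipl read 7.0 and 6.56 in cortex organoids and 4.06 and 4.23 in medulla organoids, and Syn2 7.62 and 7.59 and 4.69 and 5.46. Their differences were -3.15 ± 0.47 and -3.40 ± 0.55 (SE, limma adjusted p = 0.00486 and 0.00789). Akr1c14, Enpp3, Lipk and Arg1 were called under all 20 alternatives, which include leaving out each culture array. Tmprss11a, Bnipl and Syn2 were called under the 19 in which they were tested, and Cxcl15 under 18. These 4 genes did not pass the stricter brightness filter, and Cxcl15 was also not tested with an offset of 1. Cd177, a granulocyte surface protein, Piezo2, a stretch-gated channel, and Wfdc18, a small secreted protease inhibitor, had differences of -3.19 ± 0.59, -3.33 ± 0.77 and -3.14 ± 0.79 (SE, limma adjusted p = 0.0141, 0.0354 and 0.0484). The Cd177 call was lost without cortex progenitor replicate 1, medulla progenitor replicate 2 or cortex organoid replicate 1 (limma adjusted p 0.00382 to 0.0759 over the 8 leave-outs). The Piezo2 call was lost without any progenitor or cortex organoid array other than cortex progenitor replicate 1 (limma adjusted p 0.0032 to 0.144), and the Wfdc18 call without any of those 6 (limma adjusted p 0.00473 to 0.166).

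Of 30 Wnt pathway genes, 3 had a more downward change in medulla and 0 a more upward one by limma (4 and 4 at an unadjusted p below 0.05). Over all genes 2.48% were called downward and 1.63% upward. Wnt5b, a ligand of the non-canonical branch, read 5.28 and 4.25 in cortex progenitors and 9.14 and 9.01 in cortex organoids, against 5.14 and 5.31 and 6.04 and 6.18 in medulla. It rose in both regions and by 3.43 log2 units less in medulla (SE 0.50, limma adjusted p = 0.00464). Its probe set is of a kind that can bind related transcripts. Sfrp1, a secreted Wnt inhibitor, rose from 6.53 and 6.87 to 8.38 and 8.15 in cortex and fell from 6.63 and 6.65 to 5.86 and 5.40 in medulla. The progenitor arrays overlapped and the organoid arrays lay more than 2 log2 units apart, a difference of -2.58 ± 0.36 (SE, limma adjusted p = 0.00406). Dkk2, another inhibitor, rose by 2.73 in cortex, and its 2 medulla organoid arrays read 4.06 and 6.70. Its difference of -3.76 ± 0.89 (SE, limma adjusted p = 0.0386) was lost without any 1 progenitor or cortex organoid array (limma adjusted p 0.000208 to 0.144 over the 8 leave-outs).

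Of 34 genes of the TGF-beta and BMP pathways, 2 had a more upward and 4 a more downward change in medulla, against 1.63% and 2.48% of all genes (5 and 11 at an unadjusted p below 0.05). Grem1, a secreted BMP inhibitor, fell from 9.80 and 10.06 to 7.95 and 8.50 in cortex and rose from 9.87 and 9.96 to 10.52 and 11.06 in medulla (difference 2.58 ± 0.40, SE, limma adjusted p = 0.00575). The 2 organoid groups were more than 2 log2 units apart and the progenitor groups overlapped. Tgfb2, a ligand, rose steeply in both regions, by 6.34 in cortex and by 4.78 in medulla, a difference of -1.56 ± 0.31 (SE, limma adjusted p = 0.0201). Inhbb, an activin subunit, rose by 2.99 in cortex and by 0.88 in medulla, a difference of -2.11 ± 0.42 (SE, limma adjusted p = 0.0214). The Tgfb2 call was lost without any progenitor or cortex organoid array other than medulla progenitor replicate 2 (limma adjusted p 0.00746 to 0.0872 over the 8 leave-outs), and the Inhbb call without any of those 6 (limma adjusted p 0.0009 to 0.0937). Of 16 targets of the co-activator YAP 1 was more upward and 3 were more downward in medulla, and of 16 Notch pathway genes 0 were called by limma (2 at an unadjusted p below 0.05).

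Of 102 genes of nephron segments and urothelium 9 were called (8.82%, against 4.1% of all genes tested), 3 more upward and 6 more downward in medulla. Some genes stand in more than 1 of these lists. The counts were 0 upward and 2 downward of 28 proximal tubule genes, 1 and 0 of 17 loop of Henle genes, and 1 and 0 of 11 distal convoluted and connecting tubule genes. They were 1 and 1 of 18 principal cell genes, 0 and 2 of 17 intercalated cell genes, and 1 and 1 of 13 urothelial genes, where 1.63% and 2.48% of all genes were called. At an unadjusted p below 0.05 limma gave 4 and 6 proximal, 1 and 2 loop, 2 and 2 distal, 4 and 2 principal cell, 1 and 3 intercalated and 3 and 1 urothelial genes. Kcnj1, the potassium channel of the thick ascending limb and collecting duct, rose from 4.28 and 4.98 to 6.40 and 6.95 in cortex and from 4.07 and 4.16 to 9.33 and 8.49 in medulla. All medulla organoid arrays lay above all cortex organoid arrays, a difference of 2.75 ± 0.50 (SE, limma adjusted p = 0.0132). Calb1, the calcium-binding protein of the distal tubule, rose to 7.35 and 6.73 in cortex organoids and 9.98 and 10.19 in medulla organoids from 4.68 to 5.27 (difference 2.62 ± 0.34, SE, limma adjusted p = 0.00292). Slc26a4, the anion exchanger pendrin of intercalated cells in the cortex, rose further in cortex, to 12.08 and 12.19 against 11.07 and 10.74 (difference -1.68 ± 0.41, SE, limma adjusted p = 0.0415). The Slc26a4 call was lost without any 1 progenitor or cortex organoid array (limma adjusted p 0.0179 to 0.167 over the 8 leave-outs), and the Kcnj1 call without cortex progenitor replicate 2, either medulla progenitor array or cortex organoid replicate 1 (limma adjusted p 0.0013 to 0.0651).

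Several of the steepest rises showed no measured dependence on region. Umod, the thick limb gene of uromodulin, rose from 5.67 and 5.08 to 11.31 and 11.55 in cortex and from 4.86 and 4.57 to 10.75 and 10.76 in medulla, a difference of -0.02 ± 0.26 (SE, limma adjusted p = 0.981). Pigr, the epithelial receptor that carries immunoglobulin A, rose by 7.61 and 7.57, a difference of -0.04 ± 0.28 (SE, limma adjusted p = 0.964). S100g, a distal calcium-binding protein, rose by 7.65 and 7.62, and Slc3a1, a subunit of the proximal cystine carrier, by 4.19 and 4.33. Among the followed genes with steep falls, Cdh2 differed by region as given above, while Pik3cd and Pdgfb did not pass the test. Pik3cd, a lipid kinase gene, fell from 13.66 and 13.25 to 3.98 and 4.0 in cortex and from 13.36 and 13.34 to 4.02 and 4.19 in medulla, a difference of 0.22 ± 0.27 (SE, limma adjusted p = 0.731). Its organoid arrays lay near 3.92, the reading at a signal of 0, in both regions. A region difference below that level could not be seen. Pdgfb, a growth factor for mesenchyme, fell by 6.60 and 6.86, a difference of -0.26 ± 0.42 (SE, limma adjusted p = 0.802). The SE was 0.26 to 0.42 for these genes. Differences of several SE can go uncalled, as for Col1a1 at 0.74 ± 0.24 and Fn1 at 1.09 ± 0.37 (SE), so such region differences could be missed here.

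Proliferation genes split by list. Of 25 cell cycle genes, 25 fell in cortex and 24 in medulla, with medians of -2.35 and -2.38, and 0 were called for a region difference by limma (1 at an unadjusted p below 0.05). Top2a, the topoisomerase of dividing cells, fell by 3.33 and 3.73. Of 28 DNA replication genes, 19 fell in cortex and 20 in medulla, with medians of -0.93 and -1.50. In 4 of them, Mcm7, Rrm1, Cdc6 and Lig1, the change was more downward in medulla, as it was in 2.48% of all genes. Mcm7, a subunit of the replicative helicase, fell from 12.63 and 12.54 to 11.31 and 11.38 in cortex and from 12.48 and 12.59 to 10.51 and 10.16 in medulla (difference -0.95 ± 0.20, SE, limma adjusted p = 0.0229). The Mcm7 call was lost without any 1 progenitor or cortex organoid array (limma adjusted p 0.00217 to 0.115 over the 8 leave-outs). Without such an array 0 or 1 members of the list were called, and 8 and 12 without medulla organoid replicate 1 and 2.

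Stress and metabolic lists held between 0 and 3 calls each. Of 20 genes of the amino acid stress response, 2 (10%) were more upward and 0 more downward in medulla, against 1.63% and 2.48% of all genes. Vldlr, a lipoprotein receptor, rose from 10.50 and 10.55 to 11.61 and 11.64 in cortex and from 9.85 and 9.50 to 12.09 and 12.43 in medulla, and the organoid groups did not overlap (difference 1.48 ± 0.21, SE, limma adjusted p = 0.004). Of 24 glycolysis and hypoxia genes, 2 were more upward and 1 more downward (12.5% in all, against 4.1% of all genes). Of 23 xenobiotic and glutathione genes 2 (8.7%) were more downward and 0 more upward, against 2.48% and 1.63% of all genes. Cyp1a1, the aryl hydrocarbon-induced oxidase, rose by 5.32 in cortex and by 2.99 in medulla, a difference of -2.33 ± 0.55 (SE, limma adjusted p = 0.0379). That call was lost without any progenitor or cortex organoid array other than medulla progenitor replicate 2 (limma adjusted p 0.0156 to 0.161 over the 8 leave-outs). In the lists of cholesterol synthesis, fatty acid oxidation, interferon response, immediate early genes, EGF family, Hox genes, immune cells and simple, basal or stratified epithelium limma called 0 genes. In each of the 14 lists without a call, 1 to 4 genes had an unadjusted p below 0.05.

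**Figure D5:**
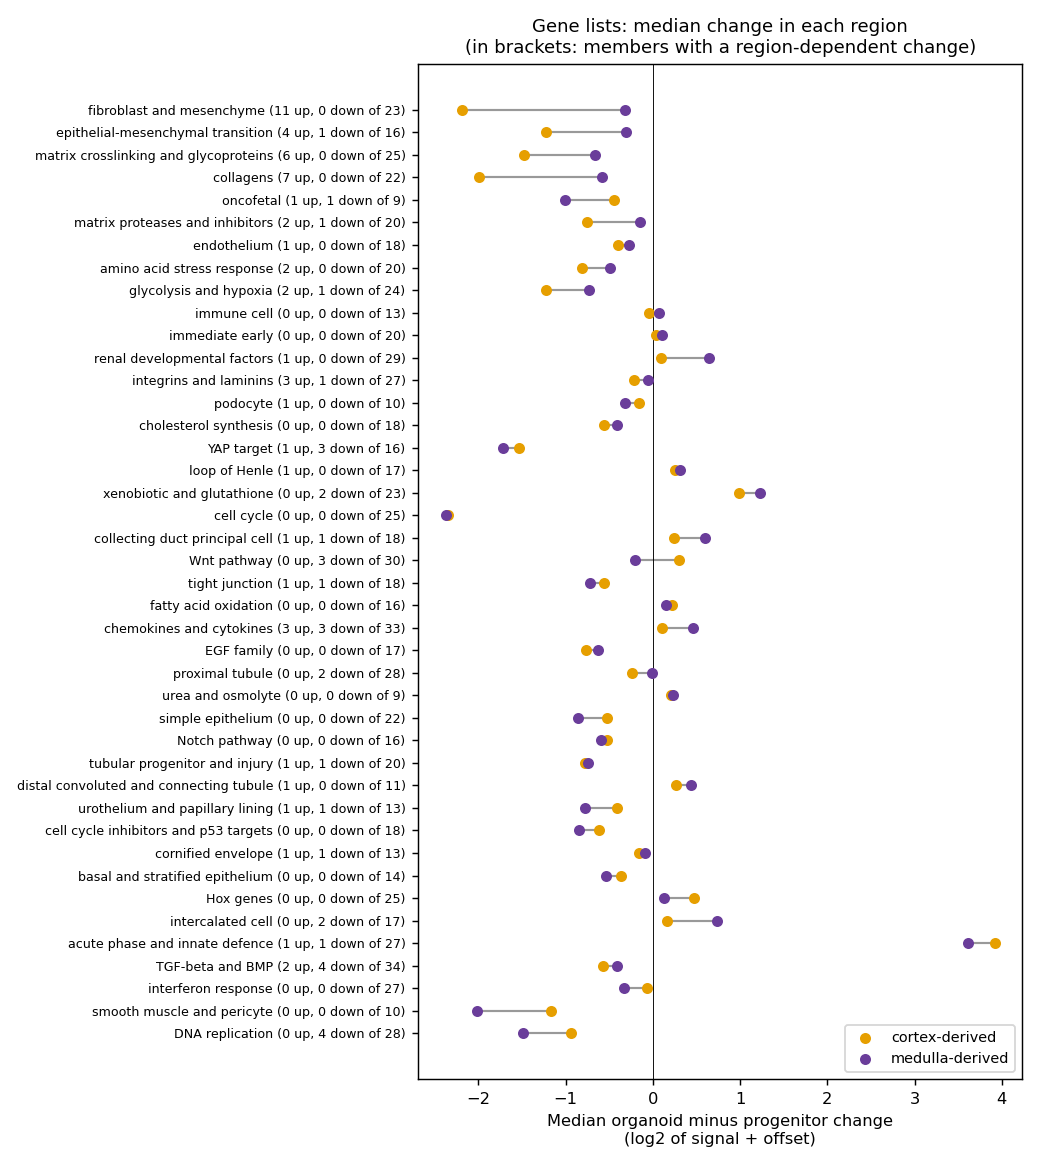
Each line is 1 of 42 gene lists, ordered by the median region difference in change. Dots give the median organoid minus progenitor change of the list in cortex-derived (orange) and medulla-derived (purple) cultures, in log2 of signal plus offset, and brackets the members called upward and downward of those tested. The fibroblast list lies at -2.19 in cortex and -0.32 in medulla, and the cell cycle list at -2.35 and -2.38.

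Split by what each region did, the genes with a more upward change in medulla were mainly losses in cortex. The cortex change is part of the measure that chose these genes, so the split describes them and is no test. Over all genes tested 37.5% fell and 24.3% rose in cortex. Of the 212, 132 fell in cortex: 69 of these had no called change in medulla, 43 fell less in medulla and 20 rose there. A further 45 rose in medulla without a called change in cortex, and 35 rose in both. Stc1, which encodes the hormone stanniocalcin 1, was among those that fell in both, by 3.80 in cortex and by 0.84 in medulla. Its difference was 2.97 ± 0.38 (SE, limma adjusted p = 0.00292). Tshz3, a zinc finger factor gene of ureter muscle development, rose in medulla from 5.88 and 5.30 to 7.97 and 8.62 and read 5.10 and 5.13 and 4.23 and 4.99 in cortex (difference 3.21 ± 0.53, SE, limma adjusted p = 0.00862). Nrn1, a neurite growth gene, fell from 7.28 and 7.38 to 5.31 and 4.99 in cortex and rose from 7.01 and 7.12 to 8.01 and 7.99 in medulla (difference 3.11 ± 0.41, SE, limma adjusted p = 0.00292).

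The genes with a more downward change in medulla were mainly gains in cortex. This split too describes genes chosen by that measure, and 24.3% of all genes tested rose in cortex. Of the 323, 199 rose in cortex: 87 of these rose less in medulla, 78 had no called change there and 34 fell. Another 68 fell in medulla without a called change in cortex, and 56 fell further in medulla than in cortex. Ackr3, a scavenger receptor for the chemokine CXCL12, rose from 7.29 and 7.31 to 8.95 and 9.32 in cortex and fell from 7.19 and 7.16 to 5.82 and 6.39 in medulla (difference -2.90 ± 0.33, SE, limma adjusted p = 0.00177). Padi4, an enzyme that converts arginine in proteins to citrulline, did the same, ending at 8.13 and 8.51 and 5.69 and 6.13 (difference -2.92 ± 0.46, SE, limma adjusted p = 0.00627). Zfp770, a zinc finger gene, fell in medulla from 9.69 and 9.67 to 7.77 and 7.35 and read 9.51 and 9.65 and 9.82 and 10.10 in cortex (difference -2.49 ± 0.32, SE, limma adjusted p = 0.00292). Opposite calls in the 2 regions were rare, at 59 genes in all, of which 54 were among the 535.

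The region difference in change came mostly with a gap that was small in progenitors and wide in organoids. Over the 535 genes the median size of the medulla minus cortex difference was 0.19 in progenitors and 1.30 in organoids, against 0.13 and 0.35 over all genes tested. It was larger in organoids in 491 of the 535 (91.8%), and in 74.5% of all genes. In progenitors 494 of the 535 lay within 1 log2 unit of each other, and in organoids 165 did. Both gaps are parts of the measure that chose these genes, so they describe it and are no further test.

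A smaller set went the other way, with a wide gap in progenitors that closed in organoids. Plagl1, an imprinted zinc finger gene of fetal tissue, read 6.83 and 6.68 in cortex progenitors and 10.63 and 10.76 in medulla progenitors, but 10.25 and 10.49 and 11.18 and 10.92 in organoids. Cortex progenitors were the outlying group, and the region difference was -3.26 ± 0.21 (SE, limma adjusted p = 5.49e-05). The probe set is of a kind that can bind related transcripts, and with the mean of all probe sets of the gene the difference was -0.31 (limma adjusted p = 0.76). Gzmd, a granzyme gene, read 3.97 and 4.19 in cortex progenitors and 6.85 and 6.77 in medulla progenitors, with organoid arrays between 3.93 and 4.14. Its difference was -2.63 ± 0.45 (SE, limma adjusted p = 0.00944), and -2.74 to -2.52 with 1 array left out. The Gzmd call was lost with an offset of 1 and with a variance for each group (limma adjusted p = 0.11 and 0.0742). It was also lost without cortex progenitor replicate 1. All its arrays but those of medulla progenitors lay near 3.92, the reading at a signal of 0. Gzme, its neighbour and close relative, and Gpx3, an extracellular glutathione peroxidase, were named after their values were seen. The gap closed from 3.49 to -0.12 for Gzme and from 2.16 to 0.53 for Gpx3. In 11 genes the order of the regions turned over by at least 1 log2 unit on each side, Dkk2 and Stmn2 among them.

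The 4 tissue arrays, which the region difference in change does not use, gave 43 genes higher in medulla (0.33%) and 1 higher in cortex (0.00767%) by limma at an adjusted p below 0.05. Of the 535 genes 0 were among these 44. At an unadjusted p below 0.05, 41 of the 535 were higher in medulla tissue and 21 in cortex tissue, 11.3% of the upward and 11.8% of the downward genes, against 9.07% of all genes tested. The median medulla minus cortex difference in tissue was 0.00 for the upward genes and 0.06 for the downward genes, against 0.01 for all.

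Other probe sets of the same genes gave a further reading. For 279 of the 535 genes 472 other bright probe sets were measured, and 372 (78.8%) had a region difference of the same sign. Of these 472, 66 were called in the same direction and 0 in the opposite one. At an unadjusted p below 0.05, 157 had the same direction and 13 the opposite one. These probe sets read the same RNA on the same arrays, so they are no independent test. The share with the same sign among genes that were not called is not given here.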

How the data were processed

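Total RNA of 12 cultures and tissues was labelled with a 3′ IVT kit, per the labels' protocols, and read on Affymetrix mouse arrays. MAS5 made the signals, per the submitters' processing notes; its version was not found in the labels. The authors deposited log2 signals per probe set. On every array the mean signal after trimming 2% at each end was 500, so the arrays had been scaled to 1 target. MAS5 detection calls were not used here.

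Of 45101 probe sets, 64 were controls and 34945 others had 1 gene symbol in the platform annotation; 932 had several and 9211 none and gave no gene results. Each of 18193 genes was read from its brightest probe set, by the mean over all 12 arrays. Genes brighter than the array median on both arrays of any group were tested. Signals were unlogged, 15.1473 (the 25th percentile) was added and log2 was taken again. R 4.3.3 and limma 3.58.1 fitted 6 group means to all 12 arrays (6 residual degrees of freedom, prior 5.67, mean-variance trend), with two-sided tests and Benjamini-Hochberg adjustment over 13037 genes at 0.05. The spread was shared over groups. With 2 arrays a group, precision is limited by their number. The fit was also run on simulated data, whose outcome is not given here and is not used as support.

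The comparison, the 42 gene lists and the tests were chosen with earlier results of these data known, and lists are described by counts and medians without a list test. Named genes are the 12 largest differences each way with an adjusted p below 0.05, at least 2-fold and with changes of single arrays that do not overlap, passing over unnamed gene models and cross-hybridizing probe sets. Added to these are up to 5 called genes of a described list, 4 of each class by direction and a set of followed markers. Promoter windows came from RefSeq (GRCm38.p6). Alternatives changed the scaling, offset, filter, probe set rule, arrays fitted, variance model and replicate block, and left out each culture array in turn.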

Additional observations from a re-analysis of the deposited data

Results flagged for a closer look

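These results stand out because the change from progenitor to organoid differed between the 2 regions by the test of the difference itself. In all, 535 genes did so. The 12 largest differences each way are listed, passing over unnamed gene models and cross-hybridizing probe sets. The log2 differences among the named genes that were more upward in medulla were 5.31 for Saa1, 4.06 for S1pr3, 3.78 for Ccl7, 3.67 for Dcn and 3.66 for Tmem52b. They were 3.53 for Mgp, 3.52 for Ptx3, 3.50 for Afp, 3.43 for Defb3, 3.33 for Col6a1, 3.30 for Gja3 and 3.28 for Col6a2. Those more downward in medulla were -3.98 for Tmprss11a, -3.95 for Cxcl15, -3.87 for Akr1c14, -3.76 for Dkk2 and -3.70 for Enpp3. They were -3.40 for Syn2, -3.33 for Piezo2, -3.22 for Lipk, -3.20 for Arg1, -3.19 for Cd177, -3.15 for Bnipl and -3.14 for Wfdc18. Groups of 2 arrays are too small for a check of single outlying arrays.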

How the results depend on the processing

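Of the 535 genes, 442 were tested in all 20 alternatives and 59 of these were called in each; the other 93 did not pass the brightness filter in at least 1. Counting for each gene the alternatives that tested it, 521 kept the sign of their difference, 71 stayed called in every one and 108 in every one that did not leave out an array. The count was 266 with the 8 culture arrays alone and 222 with a variance for each group, in which medulla organoid arrays got a weight of 0.24 and cortex progenitor arrays 2.32. It was 470 to 627 with other scalings and offsets, 399 without a brightness filter and 400 with the mean of all probe sets. Leaving out 1 array gave 124 to 2509. The labels do not say whether equal replicate numbers pair the arrays, and the main fit took them as unpaired. Deviations of same-numbered arrays correlated at -0.11 to 0.05 between groups, which with 2 arrays a group cannot settle the pairing. A replicate block gave 407 genes. The counts for the change in each region stayed within 1.5 times. DNA replication genes called were 2 with the mean of all probe sets, with the 8 culture arrays alone and without the variance trend, 1 with a variance for each group, and 0 to 12 with 1 array left out. With 1 array left out, called members were 4 to 14 in the fibroblast list, 3 to 11 among collagens, 3 to 9 among matrix proteins and 2 to 8 among transition genes. F11r, a tight junction gene called at -1.12, reversed to 0.29 with the mean of all probe sets (limma adjusted p = 0.738). Of the 97 named genes called, 74 were tested in every alternative and 20 of these called in each, 30 were called in every alternative that tested them, and 57 with a variance for each group. With a variance for each group, genes described above that lost the call included Cyp1a1, Cdc6, Piezo2, Slc26a4, Col3a1, Lig1, Gzmd and Gja3. The limma adjusted p was 0.142, 0.129, 0.109, 0.101, 0.0945, 0.075, 0.0742 and 0.0731 in that order. Mmp14, Tgfb2, Wfdc18, Cd177 and Rrm1 lost it too, at 0.0672, 0.063, 0.0624, 0.0609 and 0.058. Calb1, Stc1, Zfp770 and Plagl1 were lost only with the mean of all probe sets, and Tmem52b only with an offset of 1. Detection calls and more arrays would be needed to judge dim genes.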

Other observations

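Of 3561 bright probe sets with no gene symbol or several, 11 had a more upward and 15 a more downward change in medulla. Both counts are smaller shares than the 1.63% and 2.48% called of all genes tested, and the reason was not tested. In 8803 pairs of neighbouring genes on RefSeq's GRCm38.p6 map with both genes tested, both were called in 26, and 18 of these moved in the same direction. With 4.1% of all genes called, some such pairs arise without any link between neighbours, and an excess was not tested. The pairs, read after their values were seen, included the near relatives Gzmd and Gzme, Padi1 and Padi2, Ccl2 and Ccl7 and the collagen pairs Col6a1 with Col6a2 and Col4a1 with Col4a2. Near relatives can share probes. Thy1 with Usp2 and Prrx2 with Ptges were pairs of unrelated genes, with differences of 2.38 and 1.82, and of 2.73 and 1.79.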
